A study of Mus musculus with 168 samples.

Results

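The comparison described here sets the cortex of mice carrying a Huntington's disease allele of 140 CAG repeats (Q140) beside that of mice carrying an allele of 20 repeats (Q20), both at 10 months of age. Libraries were chosen by their titles, which gave 8 Q140 and 8 Q20 libraries, 16 of the 168 in the series, with 4 females and 4 males a side. All were polyA RNA from flash-frozen cortex of C57BL/6 mice heterozygous for a knock-in at Htt, so that the other Htt allele of each mouse was not the knocked-in one. The Q20 mice are themselves knock-ins, with a short repeat, and stand as the control. The labels give each group housing with mice of its own allele, so that the effects of housing and allele cannot be told apart. The rest of the series covers wild types and alleles of 80, 92, 111 and 175 repeats, at 2, 6 and 10 months.

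Htt encodes huntingtin, a large scaffold protein, and the CAG repeat in its first exon codes for a run of glutamines. Long runs cause Huntington's disease, in which projection neurons of the striatum are lost early and the cortex that feeds them is also affected. Cortex in bulk holds neurons, astrocytes, oligodendrocytes, microglia and vessels together, so that fewer cells of a type and less RNA per cell cannot be told apart in any value below.

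The repeat lies in exon 1 of 67 of Htt, on the plus strand of chromosome 5. The mouse reference sequence around it (GENCODE M21 transcript Htt-201, GRCm38, chr5:34761937-34762008, coding) is shown because the alleles are named by CAG length. Capitals mark the longest unbroken CAG run, of 4 units. The knocked-in sequences themselves were not analysed here, and the values are per gene and do not read the length of the repeat.
Htt exon 1: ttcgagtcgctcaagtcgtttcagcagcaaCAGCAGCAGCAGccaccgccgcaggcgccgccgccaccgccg

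Estimated counts summed to between 30140637 and 41929027 per Q140 library and between 31271733 and 43744138 per Q20 library. Levels are given as CPM, counts scaled to library size and composition, and differences as log2(Q140/Q20) ± the standard error from edgeR. Where 3 levels are given for a group of 8 libraries, they are the lowest, the median and the highest. Libraries are named by sex and number. The labels do not say whether each came from a separate animal, so that p-values measure the spread between libraries. For edgeR this spread was estimated over all 56 libraries of an age, unless another fit is named. Xist and Ddx3y matched the labelled sex in all 16. Q140 F3 and Q20 M2 were low in long transcripts: the median level of genes with at least 9540.4 exonic bases relative to those with at most 1469, set against all 56 libraries of that age, was -0.67 and -0.28 on the log2 scale, and -0.050 to 0.12 in the other 14. Q140 M2 and M3 stood apart in transcripts known from the habenula, described with Shox2 below. Choroid plexus markers ranged widely in both groups, with sums of 38.2 to 2135 CPM in Q140 and 30.4 to 1504 CPM in Q20.

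Few genes separated the groups. Of 17219 genes tested, 13 were higher in Q140 (0.0755%) and 9 lower (0.0523%) at an adjusted p under 0.05 in edgeR's quasi-likelihood test, which makes 22 changed (0.128%), and 892 had an unadjusted p under 0.05. The higher genes include Chdh and Enpp6, enzymes that act on choline compounds, the interleukin receptor genes Il17rb and Il12rb1, the ligand Wnt3 and the claudin Cldn14. The lower genes include Arpp21, a neuronal phosphoprotein, the G protein-coupled receptors Gpr153 and Gpr83, the cytokine Il33 and the fatty acid desaturase Fads1. Apart from Shox2 and Cldn14, with 5.95-fold and 2.08-fold differences, the higher genes differed by 1.25-fold to 1.95-fold.

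The number of calls leaned on few libraries. Without Q140 M2 and M3, a setting chosen after seeing the data, edgeR called 0 of 17319 genes, with 722 at an unadjusted p under 0.05 and a lowest adjusted p of 0.072, and DESeq2 called 15. In that edgeR fit the genes other than Shox2, 21 in number, kept 84.1% to 112% of their log2 difference, and 21 of the 22 had an unadjusted p under 0.05. The 22 were chosen with the libraries that remain in this fit, so that both values describe these genes and do not support them. Leaving out 1 library at a time gave 9 to 29 calls, with 9 without Q140 M2, 11 without Q20 F3 and 12 without Q20 F1. The 8 genes that passed in all 16 of these fits were Slc45a3, Chdh, Enpp6, Il17rb, Arpp21, Fads1, Gpr153 and Car2.

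**Figure D1:**
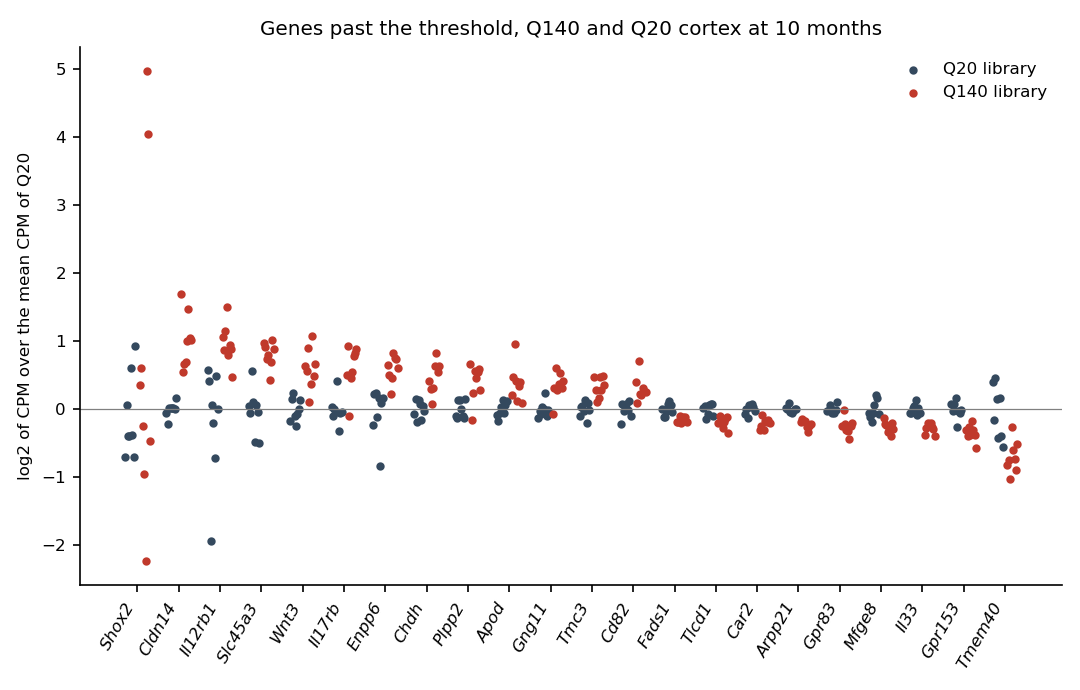
Each of the 22 genes past the threshold, ordered by fold change, with a point for each library: the y axis is the log2 of a library's CPM over the mean CPM of the Q20 libraries. Q140 points lie apart from Q20 points in Cldn14, Arpp21 and Il33, overlap in the other genes, and in Shox2 only 2 Q140 points stand high.

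The CPM ranges of the groups did not overlap in 9 of the 17219 genes (0.0523%), 4 higher and 5 lower in Q140. Of the 22 called genes, 3 were among them: Cldn14, Arpp21 and Il33. Pkd2l1, a channel of the polycystin family just outside the threshold, was also among the 9 (0.767, 0.921 and 1.03 CPM in Q140 and 1.18, 1.31 and 1.71 CPM in Q20, -0.58 ± 0.14, adjusted p = 0.06). Just inside it lay Shox2 (adjusted p = 0.048).

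Several higher genes are known from oligodendrocytes, the cells that make myelin, or act on choline. Slc45a3 encodes a transporter of the solute carrier family and lies at chr1:131962967-131982969 (GRCm38, as all positions here). It measured 0.991, 1.33 and 1.49 CPM in Q140 and 0.523, 0.739 and 1.09 CPM in Q20. Only Q140 M1 lay inside the Q20 range, whose top was set by Q20 F3. The difference was 0.82 ± 0.15 (1.77-fold, adjusted p = 0.0085).

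Chdh encodes choline dehydrogenase, the mitochondrial enzyme that starts the oxidation of choline to betaine. It measured 7.09, 9.39 and 11.9 CPM in Q140 and 5.90, 6.75 and 7.47 CPM in Q20, and 7 of 8 Q140 libraries lay above every Q20 library. The difference was 0.49 ± 0.088 (1.4-fold, adjusted p = 0.0085). Chdh is also a liver gene. Albumin, the defining transcript of liver, was at or under 0.059 CPM in all 16 libraries.

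Enpp6 (chr8:46986887-47096762) encodes a phosphodiesterase of choline compounds and marks oligodendrocytes as they form. It measured 5.21, 6.87 and 7.89 CPM in Q140 and 2.49, 4.85 and 5.28 CPM in Q20, with 7 of 8 Q140 libraries above every Q20 library. The difference was 0.61 ± 0.12 (1.52-fold, adjusted p = 0.01). The lowest library of each group was the one low in long transcripts, Q140 F3 and Q20 M2.

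Apod (chr16:31296192-31314808) encodes apolipoprotein D, a lipid-binding lipocalin. It measured 142, 172 and 260.4 CPM in Q140 and 118, 133 and 146 CPM in Q20 (0.40 ± 0.090, 1.32-fold, adjusted p = 0.042). The highest value came from Q140 F3, and without that library the adjusted p was 0.14.

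The oligodendrocyte lists held 1 call among them. For the counts of list members above or below 0, here and further on, 49.1% of all genes tested lay below 0. Of 10 markers of newly formed oligodendrocytes, Enpp6 was called higher and none lower, 9 lay above 0 and the median log2 difference was 0.086, beside 0.0013 over all genes tested. Another member, Tcf7l2, was at 15.3 and 9.14 CPM in Q140 M2 and M3 and at 3.42 to 4.55 CPM in the other 14 libraries, and was not called (0.58 ± 0.17, adjusted p = 0.29). None of 16 mature oligodendrocyte markers and none of 9 tested precursor markers was called. The mature markers summed to 4927 to 5491 CPM in Q140 and 4762 to 5718 CPM in Q20. Of 15 tested genes of choline and one-carbon metabolism, 2 were called higher, Chdh and Enpp6, and 13 lay above 0, with a median of 0.048.

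Chdh and Il17rb are neighbours on chromosome 14 that run in opposite directions from starts 127 bases apart in GENCODE M21, and both were higher. Il17rb, at chr14:29996135-30008896 on the minus strand, encodes a subunit of the receptor for interleukins of the IL-17 family. Chdh lies at chr14:30009023-30040527 on the plus strand. The bases between their RefSeq starts are printed because this stretch lies upstream of both genes (GRCm38.p6, chr14:30008897-30008999, plus strand). Capitals mark a match, on the minus strand, to the GC-box letters GGGCGG.
Il17rb to Chdh: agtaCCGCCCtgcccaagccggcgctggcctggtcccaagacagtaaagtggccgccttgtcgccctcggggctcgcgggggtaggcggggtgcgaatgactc

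The stretch is 103 bases long, holds 10 CpG pairs and is 69.9% G and C, beside a median of 54.4% over RefSeq promoter windows. On either strand, GGGCGG occurs once in it and in 25% of 32851 promoter windows of that length. The TATA box letters TATAAA are not in it and occur in 5.66% of the windows. The letters CCAAT are also not in it and occur in 19.2%. The same holds for the cAMP response element TGACGTCA, found in 1.17% of windows, and for the E box CACGTG, found in 3.24%. A match describes the letters and does not show a site in use.

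Il17rb measured 1.07, 1.83 and 2.19 CPM in Q140 and 0.918, 1.12 and 1.53 CPM in Q20. Q140 F3 lay within the Q20 range and the other 7 Q140 libraries above it. The difference was 0.64 ± 0.13 (1.55-fold, adjusted p = 0.012). Actr8 overlaps Il17rb on the other strand, and whether the counting used strand is not given in the sources used here. Its own difference was 0.061 ± 0.030 (adjusted p = 0.96). In all, 6 of the 22 genes overlap a gene on the other strand, and without strand their reads cannot be told apart there. The others are Chdh (with Cacna1d), Arpp21 (2900079G21Rik), Tmc3 (the antisense gene Gm16638), Tlcd1 (Rpl23a) and Shox2 (Rsrc1), and none of these 6 partners was called. Of 16987 tested genes, 10.7% had a tested neighbour that starts within 1000 bases in the opposite direction, as did 3 of the 22. The third is Tlcd1, whose neighbour Nek8 was not called (-0.18 ± 0.078, adjusted p = 0.83).

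The other interleukin genes that passed went in opposite directions. Il12rb1 (chr8:70808449-70821424) encodes a receptor subunit for interleukins 12 and 23. It measured 0.475, 0.644 and 0.962 CPM in Q140 and 0.0885, 0.348 and 0.508 CPM in Q20, from 17 to 36 counts per Q140 library and 3 to 20 per Q20 library. Q140 M4 lay within the Q20 range. The difference was 0.97 ± 0.21 (1.95-fold, adjusted p = 0.025), with an adjusted p of 0.065 without Q140 M2.

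Il33 (chr19:29925114-29960718) encodes an alarmin cytokine stored in the nucleus of glia. It measured 51.3, 55.9 and 58.7 CPM in Q140 and 63.9, 66.8 and 74.2 CPM in Q20, so that all 8 Q140 libraries lay below all 8 Q20 libraries. The difference was -0.28 ± 0.061 (0.825-fold, adjusted p = 0.032), with an adjusted p of 0.078 without Q20 M1.

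Other immune lists held no called gene: none of 20 microglial markers, 24 interferon-stimulated genes and 19 genes of gliosis and complement passed, with medians of 0.011, -0.0038 and 0.039. Microglial markers summed to 617 to 767 CPM in Q140 and 624 to 713 CPM in Q20. Serpina3n, a protease inhibitor of reactive astrocytes, measured 10.2, 11.5 and 16.7 CPM in Q140 and 8.70, 10.4 and 11.1 CPM in Q20 and was not called (0.29 ± 0.074, adjusted p = 0.11).

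Cldn14 (chr16:93919031-94008837) encodes claudin 14, a protein of tight junctions. It measured 0.384, 0.530 and 0.852 CPM in Q140 and 0.226, 0.265 and 0.296 CPM in Q20, with no overlap, from 13 to 31 counts per Q140 library and 7 to 13 per Q20 library. The difference was 1.06 ± 0.21 (2.08-fold, adjusted p = 0.012), and without Q140 M2 the adjusted p was 0.052. It was the 1 called of 13 tested claudins and junction genes, whose median was -0.0078.

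Wnt3 (chr11:103774150-103817957), a secreted Wnt ligand, measured 1.71, 2.40 and 3.34 CPM in Q140 and 1.33, 1.54 and 1.86 CPM in Q20 (0.64 ± 0.13, 1.55-fold, adjusted p = 0.021). Q140 M2 was highest, and without it the adjusted p was 0.092. Wnt10b, another Wnt ligand, measured 0.994, 1.21 and 1.59 CPM in Q140 and 1.30, 1.79 and 2.34 CPM in Q20 and was not called (-0.56 ± 0.14, adjusted p = 0.067).

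Cd82, a tetraspanin of the cell membrane, measured 17.1, 19.2 and 26.2 CPM in Q140 and 13.8, 16.1 and 17.4 CPM in Q20 (0.32 ± 0.069, 1.25-fold, adjusted p = 0.025). Gng11, a gamma subunit of G proteins, measured 7.36, 9.79 and 11.7 CPM in Q140 and 7.02, 7.64 and 9.10 CPM in Q20 (0.36 ± 0.079, 1.28-fold, adjusted p = 0.032). Both were highest in Q140 F3, and in each 7 of 8 Q140 libraries lay above every Q20 library. Without Q20 F1 the adjusted p was 0.10 for both.

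Tmc3, of the transmembrane channel-like family, measured 8.22, 9.59 and 10.8 CPM in Q140 and 6.67, 7.71 and 8.40 CPM in Q20 (0.33 ± 0.075, 1.26-fold, adjusted p = 0.042). Plpp2, a phospholipid phosphatase, measured 1.95, 3.10 and 3.46 CPM in Q140 and 2.00, 2.11 and 2.43 CPM in Q20 (0.42 ± 0.095, 1.34-fold, adjusted p = 0.042). In Plpp2 only Q140 F2 lay below the top of the Q20 range, and it was the lowest of all 16. Each passed in 5 of the 16 fits that leave out a library, with adjusted p up to 0.12 for Tmc3, without Q140 M3, and 0.13 for Plpp2, without Q140 M2.

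Shox2 (chr3:66971727-66981771) is a homeobox transcription factor of the thalamus and habenula, regions that lie beneath the cortex. It measured 4.86 CPM in Q140 M2 and 2.58 CPM in Q140 M3, 0.0330 to 0.237 CPM in the other 6 Q140 libraries and 0.0953 to 0.296 CPM in Q20. The difference of 2.57 ± 0.59 (adjusted p = 0.048) came from those 2 libraries, and without them it was -0.26 (adjusted p = 1).

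Transcripts of the habenula were high in the same 2 libraries, by a list of 10 genes added after the values were seen. Pou4f1, a transcription factor of habenular neurons, was at 1.55 and 1.15 CPM in M2 and M3 and at 0 to 0.118 CPM in the other 14 libraries. It was not confined to Q140: in Q175 at 10 months its mean was 0.448 CPM (SD 0.175), beside 0.0456 CPM in Q20. There edgeR called it higher (3.35 ± 0.67, adjusted p = 0.00046). Mean Shox2 in Q175 was 0.515 CPM (SD 0.123), beside 0.155 CPM in Q20, and was not called (1.76 ± 0.63, adjusted p = 0.075). Gpr151, a receptor of habenular neurons, was at 5.26 and 4.39 CPM against 0.531 to 1.11 CPM. The nicotinic receptor subunit Chrnb4 was at 2.04 and 4.30 CPM against 0.0330 to 0.523 CPM. In Pou4f1, Gpr151 and Chrnb4, M2 and M3 stood above every other library. Not all members of the list did so. Nwd2 was at 57.2 and 62 CPM in M2 and M3, within the 42.5 to 63 CPM of the others. Tac2 was at 9.02 CPM in M2, but at 7.45 CPM in M3, below the 8.74 CPM of Q140 F3.

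The 10 genes summed to 109 and 113 CPM in M2 and M3, 73.0 to 86.0 CPM in the other Q140 libraries and 78.5 to 93.2 CPM in Q20. None was called, and their median difference was 0.83. The 9 thalamus markers summed to 468 CPM in M2 and 431 CPM in M3, 312 to 429 CPM in the other Q140 libraries and 357 to 431 CPM in Q20, so that this sum did not set M3 apart. Single members differed. Slc17a6, a glutamate transporter of thalamic neurons, was at 49.8 and 39.5 CPM in M2 and M3 and at 23.3 to 32.2 CPM elsewhere. Tcf7l2, Prkcd, Synpo2, Patj and Lef1 also stood above every other library in both M2 and M3. Synpo2, for example, was at 9.07 and 8.26 CPM there and at 3.19 to 6.71 CPM elsewhere. Rora, Adarb1 and Plekhg1 did not stand apart in both. Rora was at 98.1 and 91.4 CPM and at 72 to 102 CPM elsewhere. Adarb1, the largest member of the sum, was at 229 and 225 CPM and at 171 to 247 CPM elsewhere. Where the habenular and thalamic transcripts came from, and their part in the other 21 calls, was not tested.

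**Figure D2:**
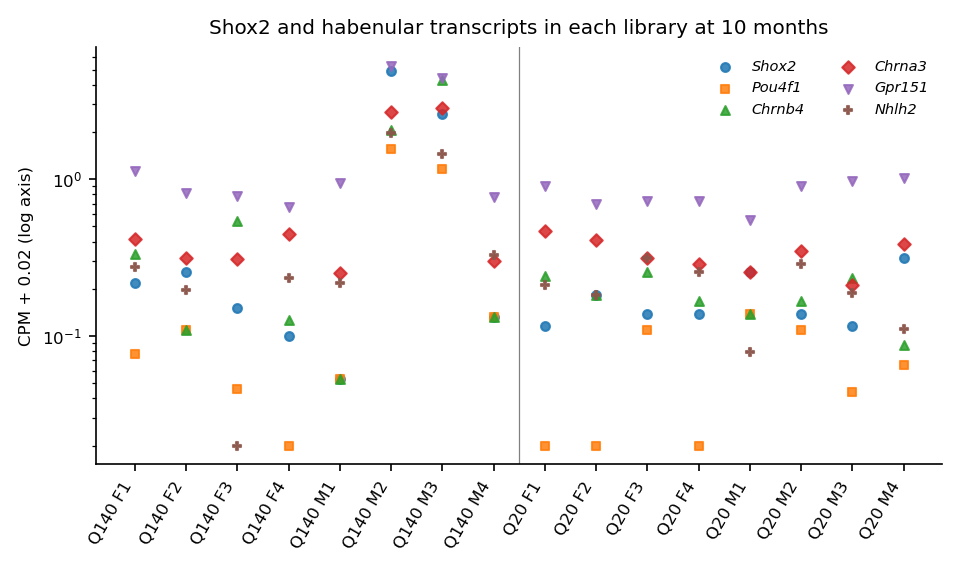
CPM of Shox2 and 5 habenular transcripts in each of the 16 libraries, on a log axis after a small addition for zeros. Q140 M2 and M3 stand above the other 14 libraries, with Shox2 at 4.86 and 2.58 CPM there.

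Among the lower genes, Arpp21 (chr9:112065091-112235938) encodes a phosphoprotein regulated by cAMP and enriched in projection neurons of striatum and cortex. It measured 308, 339 and 352 CPM in Q140 and 374, 387 and 414 CPM in Q20, with no overlap between the groups. The difference was -0.21 ± 0.039 (0.863-fold, adjusted p = 0.0085). Of 35 tested genes of cAMP, calcium and opioid signalling it was the 1 called, while 26 lay below 0 and the median was -0.049. Penk, the precursor of enkephalin, measured 21.1, 25.3 and 31.2 CPM in Q140 and 27.1, 36.7 and 54.5 CPM in Q20 and was not called (-0.65 ± 0.18, adjusted p = 0.18). None of 22 striatal projection neuron genes was called, and 18 lay below 0, with a median of -0.075.

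Gpr153 (chr4:152274232-152285337) and Gpr83 (chr9:14860210-14870789) were the 2 called of 16 tested genes on a list of orphan G protein-coupled receptors. Gpr153 measured 14.4, 17 and 19.1 CPM in Q140 and 17.9, 21.2 and 24.2 CPM in Q20 (-0.34 ± 0.068, 0.792-fold, adjusted p = 0.016). Gpr83 measured 18.9, 21.6 and 25.5 CPM in Q140 and 24.6, 25.4 and 27.6 CPM in Q20 (-0.24 ± 0.051, 0.845-fold, adjusted p = 0.021). Only Q140 F2 reached the Q20 range of Gpr83, and without Q140 M2 its adjusted p was 0.071.

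Fads1 (chr19:10182888-10196877), a desaturase of polyunsaturated fatty acids, measured 199, 205 and 215 CPM in Q140 and 213, 227 and 249 CPM in Q20 (-0.15 ± 0.029, 0.9-fold, adjusted p = 0.009). Only Q140 F3 reached the Q20 range. Of 21 genes of fatty acid and lipid metabolism, Fads1 was called lower and Chdh higher, with a median of -0.013. Fads2, which acts in the same pathway, measured 50.8, 64.1 and 67.4 CPM in Q140 and 64.6, 67.8 and 74.2 CPM in Q20 and was not called (-0.12 ± 0.035, adjusted p = 0.29). Car2 (chr3:14886273-14900770), a carbonic anhydrase abundant in oligodendrocytes, measured 139, 149.9 and 162 CPM in Q140 and 157, 174 and 181 CPM in Q20 (-0.20 ± 0.042, 0.869-fold, adjusted p = 0.018). Again Q140 F3 alone reached the Q20 range.

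Mfge8 (chr7:79133768-79149060), a secreted protein that bridges phosphatidylserine and phagocytes, measured 106, 116 and 128 CPM in Q140 and 123, 134 and 162 CPM in Q20 (-0.26 ± 0.058, 0.838-fold, adjusted p = 0.042). It passed in 4 of the 16 fits that leave out a library, with an adjusted p up to 0.19, without Q140 M2. Tlcd1, a membrane protein that acts on phospholipids, measured 18.7, 21.4 and 22.4 CPM in Q140 and 21.6, 24.5 and 25.3 CPM in Q20 (-0.19 ± 0.042, 0.879-fold, adjusted p = 0.042). Tmem40, a transmembrane protein, measured 0.837, 1.02 and 1.42 CPM in Q140 and 1.16, 1.70 and 2.33 CPM in Q20 (-0.66 ± 0.15, 0.631-fold, adjusted p = 0.033). These 2 genes each passed in 7 of the 16 fits, with adjusted p up to 0.13 without Q140 M4 and 0.11 without Q20 F1.

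No astrocyte marker was called among 16, and 14 lay below 0, with a median of -0.090. Gja1, the connexin 43 of astrocytes, measured 152, 167 and 179 CPM in Q140 and 164, 181 and 211 CPM in Q20 (-0.14 ± 0.043, adjusted p = 0.29). Plpp3, a lipid phosphatase made by astrocytes, measured 204, 214 and 242 CPM in Q140 and 228, 239 and 271 CPM in Q20 and lay just outside the threshold (-0.16 ± 0.038, adjusted p = 0.057). None of 25 cholesterol synthesis genes was called, and 22 lay below 0, with a median of -0.061. Hmgcs1, an early enzyme of that pathway, measured 263, 268 and 314 CPM in Q140 and 286, 302 and 371 CPM in Q20 (-0.15 ± 0.046, adjusted p = 0.35).

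Summed levels of marker lists were compared over the 16 libraries by an exact two-sided permutation test of the difference of means, adjusted over 17 lists, and 2 passed. The 12 markers of upper-layer neurons summed to 925, 968 and 1017 CPM in Q140 and to 1031, 1053 and 1079 CPM in Q20. Every Q140 library lay below every Q20 library, and the ratio of means was 0.924. The unadjusted p of 0.00016 is the smallest that this exact permutation test can give (adjusted p = 0.0026). None of the 12 genes was called singly, 9 lay below 0 and the median was -0.083. Wfs1, a membrane protein of the endoplasmic reticulum, measured 56, 70.6 and 88.2 CPM in Q140 and 77.4, 92.1 and 101 CPM in Q20 (-0.34 ± 0.093, adjusted p = 0.16).

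The 16 astrocyte markers summed to 7318, 7876 and 8162 CPM in Q140 and to 7887, 8432 and 9531 CPM in Q20, a ratio of means of 0.916 (exact permutation, adjusted p = 0.025). With the mean of log2(CPM + 1) over the list the upper-layer difference passed again (exact permutation, adjusted p = 0.0053) and the astrocyte difference did not (adjusted p = 0.46). Slc1a2, a glutamate transporter with medians of 3192 CPM in Q140 and 3461 CPM in Q20, weighs most in the astrocyte sum. Newly formed oligodendrocyte markers passed on mean logs (exact permutation, adjusted p = 0.011) and not as a sum (adjusted p = 0.25). Without Q140 M2 and M3 the ratio was 0.934 for upper-layer and 0.931 for astrocyte markers (exact permutation, unadjusted p = 0.00067 and 0.013). For newly formed oligodendrocyte markers, which include Tcf7l2, it was 1.04 as a sum (exact permutation, unadjusted p = 0.11), and the mean logs were not tested without them. Deep-layer markers summed to 544 to 615 CPM in Q140 and 505 to 581 CPM in Q20, which did not pass (exact permutation, adjusted p = 0.81).

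**Figure D3:**
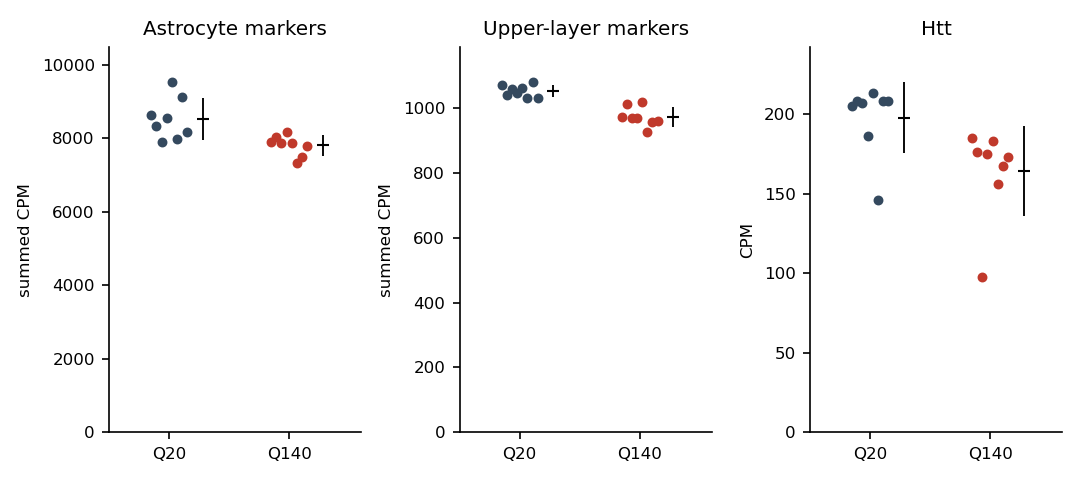
Summed CPM of 16 astrocyte and 12 upper-layer markers, and CPM of Htt, with a point for each library and the mean ± SD (n = 8) beside them. Upper-layer sums are lower in every Q140 library than in any Q20 library, and the lowest Htt points are Q140 F3 at 97.3 CPM and Q20 M2 at 146 CPM.

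Htt itself (chr5:34761740-34912534) measured 97.3, 174 and 185 CPM in Q140 and 146, 207 and 213 CPM in Q20. The difference was -0.27 ± 0.081 and did not pass (unadjusted p = 0.002, adjusted p = 0.32). The lowest library of each group was the one low in long transcripts, and the exons of Htt span 24438 bases. Without those 2 libraries the levels were 156 to 185 CPM in Q140 and 186 to 213 CPM in Q20, with a difference of -0.23 (unadjusted p = 0.00034, adjusted p = 0.13). At 6 months Htt measured 179, 185 and 199 CPM in Q140 and 191, 215 and 222 CPM in Q20 and was called lower (-0.17 ± 0.038, adjusted p = 0.0035).

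The same alleles were compared at younger ages, in other libraries. In the library names of 6 months the serial numbers of Q140 and Q20 form separate blocks, while those of 10 months interleave. At 6 months allele and serial block therefore cannot be told apart. Knock-in libraries of 6 months also have names of another form than those of 2 and 10 months. Age and name form therefore go together in tests of Q140 and Q20 against 6 months. Wild-type names of 6 months have the form of the other ages, so that the 6-month fit holds both forms. At 6 months 288 of 17611 genes were higher in Q140 (1.64%) and 116 lower (0.659%). Shox2 was not tested there. All of the other 21 genes had the direction seen at 10 months, beside 49.1% of all genes tested at both ages, and 10 were called: Slc45a3, Chdh, Enpp6, Il17rb and Plpp2 higher, and Arpp21, Gpr153, Car2, Il33 and Tmem40 lower.

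Enpp6 measured 5.25, 5.87 and 6.30 CPM in Q140 and 3.52, 4.10 and 4.90 CPM in Q20 at 6 months, without overlap (0.48 ± 0.075, adjusted p = 7e-06). Gpr153 measured 24.4, 25.7 and 27.5 CPM in Q140 and 28, 29.9 and 33.5 CPM in Q20 at that age, also without overlap (-0.23 ± 0.049, adjusted p = 0.0018). Chdh measured 7.32, 8.37 and 10.2 CPM in Q140 and 5.52, 6.65 and 7.31 CPM in Q20 (0.41 ± 0.072, adjusted p = 8.1e-05). Liver transcripts were present in the 6-month Q140 libraries, with albumin at 20.3 to 358 CPM and at most 5.31 CPM in Q20, and their part in the 6-month value of Chdh was not tested. Cldn14 and Il12rb1 were not called at 6 months (0.22 ± 0.25 and 0.11 ± 0.20, adjusted p = 0.72 and 0.82).

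At 2 months edgeR called 0 of 17194 genes (0%), with 398 at an unadjusted p under 0.05, and DESeq2 called 4. Of the 21 tested genes 17 had the direction of 10 months, beside 51.3% of all genes. Gpr153 measured 21.7, 23.7 and 27.4 CPM in Q140 and 25, 27.9 and 31.3 CPM in Q20 (-0.20 ± 0.049, unadjusted p = 0.00013, adjusted p = 0.4). Chdh and Enpp6 were near 0 (0.024 ± 0.095 and 0.075 ± 0.12). Their effects at 10 minus 2 months did not pass edgeR's test of that difference (0.46 ± 0.12 and 0.53 ± 0.14, adjusted p = 0.35 and 0.42).

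Differences between ages were tested over the 48 libraries of both alleles. The 10-month comparison shares its libraries with this test, so that genes chosen at 10 months are described by it and not supported. Between 10 and 6 months 34 of 17331 genes differed in effect (0.196%), with 0 of the 22 among them. Between 10 and 2 months 1 gene differed (0.00577%), Il33, whose effect was lower at 10 months by 0.35 on the log2 scale (adjusted p = 0.0087). At 2 months Il33 measured 46.2, 47.7 and 53.1 CPM in Q140 and 41.2, 47.3 and 51.5 CPM in Q20, and at 6 months 46.9, 49.6 and 56 CPM in Q140 and 53, 56.7 and 60.9 CPM in Q20 (-0.18 ± 0.043, adjusted p = 0.011). The groups thus overlapped at 2 months and stood apart at 10 months.

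**Figure D4:**
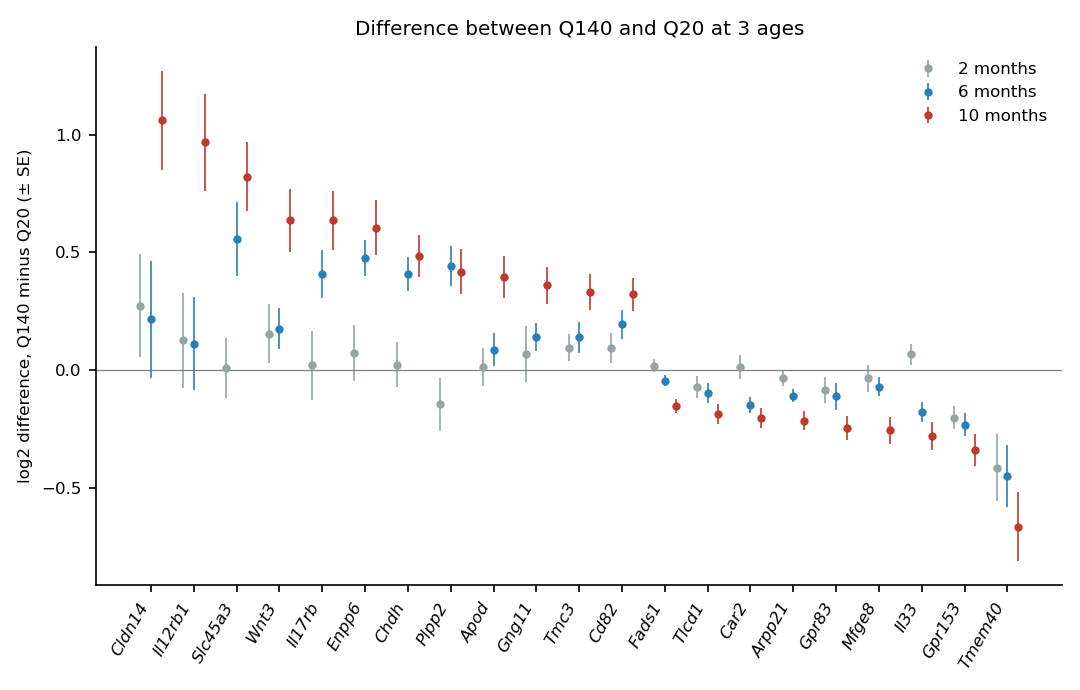
Log2 difference between Q140 and Q20 with its standard error at 2, 6 and 10 months for the 21 called genes other than Shox2. Points are estimates and bars 1 standard error either way. Differences at 6 months share the sign of those at 10 months in all 21 genes tested.

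Sexes were compared by the same kind of test. The effect of Q140 differed between males and females for 1 gene of 17219 (0.00581%), Sult1a1, a sulfotransferase that is not among the 22, with 1869 genes at an unadjusted p under 0.05. Sult1a1 measured 8.19 to 15.8 CPM in Q140 females and 6.16 to 7.15 CPM in Q20 females, without overlap. In males it measured 5.48 to 6.22 CPM in Q140 and 6.39 to 10.3 CPM in Q20, again without overlap and in the other direction. Its effect was lower in males by 1.36 on the log2 scale (adjusted p = 0.011). Chdh differed by 0.27 in females and 0.68 in males and Apod by 0.61 and 0.18, and neither difference between the sexes passed (adjusted p = 0.34 and 0.36). The libraries that stood apart are split by sex: Q140 F3, low in long transcripts, is female, and Q140 M2 and M3, high in habenular transcripts, are male. Among Q140 libraries F3 was highest in Apod and Sult1a1 and lowest in Chdh, and M2 was highest in Chdh. Their part in the differences between the sexes was not tested.

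Wild types of 10 months gave a second reference for the same Q140 libraries. Against them 61 genes were changed in Q140 (0.354%), and 14 of the 22 were among them. Since these Q140 libraries also chose the 22, and 73.5% of all genes had the same direction in both comparisons, that count is a description. Mean levels in wild type and in Q20 were 393 and 387 CPM for Arpp21, 6.12 and 6.72 CPM for Chdh and 65.3 and 67.5 CPM for Il33. The 8 genes that did not pass against wild type were Fads1, Car2, Il33, Tmem40, Tmc3, Tlcd1, Mfge8 and Shox2.

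Levels over the alleles are given as a description, since the comparisons share Q20. Mean Gpr153 was 21.5 CPM in Q20, 19.6 in Q111, 17 in Q140 and 11.8 in Q175. Mean Arpp21 was 387, 386, 334 and 306 CPM in the same order. Mean Il33 was 67.5, 54.8, 55.7 and 52.5 CPM. Arpp21 was thus near its Q20 level in Q111, while Il33 was already at its Q140 level there.

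Q175 was set against Q140 directly, and 542 genes differed (3.15%), 3 of the 22 among them, again with the Q140 libraries that chose them. Cldn14 was higher in Q175 (0.70 ± 0.18, adjusted p = 0.018). Gpr153 was lower in Q175 (-0.53 ± 0.070, adjusted p = 9.2e-07), as was Gpr83 (-0.30 ± 0.052, adjusted p = 0.00015). Plk5, a polo-like kinase expressed in neurons, was not called in Q140 against Q20 (7.72, 10.9 and 14.8 CPM in Q140 and 11.9, 16.6 and 22.1 CPM in Q20, -0.58 ± 0.15, adjusted p = 0.098). It was lower in Q175 than in Q140 (-1.14 ± 0.16, adjusted p = 3.3e-06).

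**Figure D5:**
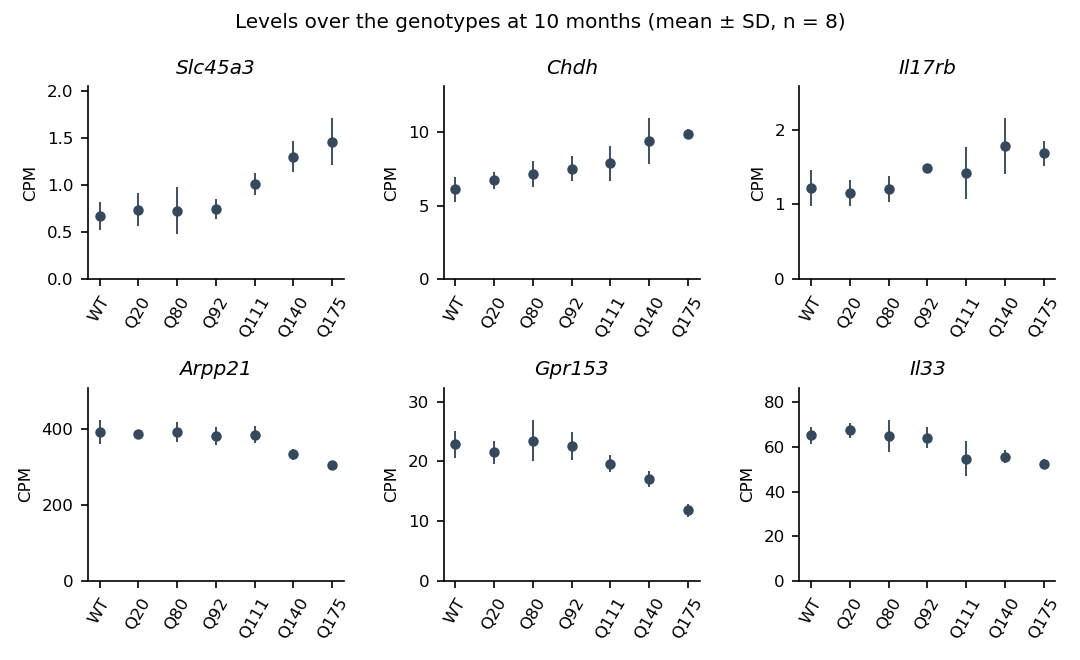
Mean CPM ± SD (n = 8) of 6 called genes in wild type and the 6 knock-in alleles at 10 months. Means of Slc45a3, Chdh and Il17rb are highest in Q140 and Q175, those of Arpp21 and Gpr153 lowest there, and Il33 is low from Q111 on, at 54.8 CPM.

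Of 42 gene lists, 35 held no called gene, and the others held Enpp6, Chdh, Fads1, Arpp21, Gpr153, Gpr83, Cldn14 or Shox2. None of 44 potassium channels, 28 sodium and calcium channels, 22 glutamate receptors and 16 GABA receptors was called, with medians of -0.031, -0.0060, -0.037 and -0.037. Of 20 immediate early genes, which neurons induce on activity, none was called and 18 lay above 0, with a median of 0.23. All 13 mitochondrially encoded genes lay below 0 without a call, with a median of -0.069, beside 49.1% below 0 of all genes tested. Members of a list can move together in a library, so that such counts are not counts of separate observations. No heat shock gene among 15 and no mismatch repair gene among 11 was called.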

How the data were processed

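RNA-seq of mouse cortex was read from tables in which the authors deposited estimated counts and FPKM values (fragments scaled to gene length and library size) per gene and library. Base calling used CASAVA 1.8.2, per the submitters' processing notes. For the aligner, counting program, genome build and strand setting, the entry is: not given in the sources used here. Libraries were grouped by their titles. Of the counts, 17.7% were not whole, and all were rounded. IDs without a symbol held 0.318% of counts. No 2 libraries of a group agreed within sampling noise (lowest chi-square per degree of freedom 3.78).

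The test was edgeR 4.0.16 (R 4.3.3), with filterByExpr (minimum count 10, minimum total 15), TMM scaling, a term for sex, all 56 libraries of an age in the fit and Benjamini-Hochberg adjustment at 0.05. The biological coefficient of variation was 0.0981. Alternatives used DESeq2 1.42.0, limma 3.58.1 on log2(FPKM + 0.1) and log2(FPKM + 1), other scalings, filters and terms, and each library left out. Marker sums were tested with scipy 1.17.1. Positions are from GENCODE M21 and promoter sequence from RefSeq.

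Genes named are the 15 higher and 15 lower with the smallest p, without clone names, called members of the lists, Htt and the leading genes of the sex and age interactions. Other genes named were chosen after their values were seen, and 1 gene that the rule names is not reported here. The comparison, the 42 lists and the 17 marker lists among them were chosen with earlier results of these data known. In counts simulated for this comparison over 17219 genes, 50 genes were changed at each of the sizes that follow. The test found 24% of those changed by 0.2 on the log2 scale, 60% at 0.3, 72% at 0.5 and 92% at 1. Of 128 calls, 3.12% were false. The measured libraries gave 22 calls, and the Benjamini-Hochberg cut-off is stricter with fewer calls. These shares therefore describe the simulated counts, and whether they hold for the measured libraries was not tested.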

Additional observations from a re-analysis of the deposited data

Results flagged for a closer look

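Levels of genes and marker sums were looked at in 82 groups of 8 libraries, which repeat the same 16 libraries and are not separate observations. In 10 of these groups 1 library lay far from the rest, where chance gives about 1 in 20 separate groups. Q140 F3 was such a library for Htt, at 97.3 CPM against 156 to 185 CPM in the other Q140 libraries, for Apod, at 260.4 CPM against 142 to 186 CPM, and for Cd82, at 26.2 CPM against 17.1 to 21 CPM. Its interneuron markers summed to 1737 CPM against 1513 to 1605 CPM and its thalamus markers to 312 CPM against 398 to 468 CPM. Q20 M2 was such a library for Htt, at 146 CPM against 186 to 213 CPM, for Gng11, at 9.10 CPM against 7.02 to 7.91 CPM, and for thalamus markers, at 357 CPM against 397 to 431 CPM. Arpp21 was at 414 CPM in Q20 F3 against 374 to 391 CPM, and Il17rb at 1.53 CPM in Q20 M1 against 0.918 to 1.17 CPM.

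Effects of Q140 that differed between groups by a test of the difference numbered 1 gene for males minus females, 34 for 10 minus 6 months and 1 for 10 minus 2 months. The first was Sult1a1 (-1.36 on the log2 scale) and the last Il33 (-0.346). Of the 34, Cited2, a transcriptional regulator, had a higher effect at 10 months (0.294). Cps1 (-3.63), Gnmt (-2.11), Fbp1 (-2.52), Cyp2e1 (-3.93) and Rgn (-3.48) had lower effects. These 5 are liver genes, and albumin was at 20.3 to 358 CPM in the 6-month Q140 libraries and at or under 0.059 CPM in those of 10 months.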

How the results depend on the processing

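The 22 genes changed (13 higher, 9 lower) became 42 (27 and 15) with DESeq2, which called all of the 22, 7 (3 and 4) with only the 16 libraries in the fit, 61 (35 and 26) with wild type as the reference, 13 (9 and 4) with limma on log2(FPKM + 0.1) and again on log2(FPKM + 1), 9 (5 and 4) in females and 2 (1 and 1) in males. Leaving out 1 library at a time gave 9 to 29 changed, 4 to 20 higher and 5 to 12 lower. In settings chosen after seeing the data, edgeR called 0 changed, 0 higher and 0 lower without Q140 M2 and M3, and again 0, 0 and 0 without these, Q140 F3 and Q20 M2. DESeq2 without M2 and M3 called 5 higher of 15, and edgeR without Q140 F3 and Q20 M2 called 6 higher of 15. Shox2 turned to -0.26 without M2 and M3 and to -0.29 without all 4 libraries, while the other 21 genes kept their direction in every setting that gave them a value. Of the 22 genes, 6 were called with only the 16 libraries, which lost Fads1, Enpp6, Il17rb and Car2 among others. Either FPKM setting called 13 of the 22, a fit of females alone 3 and a fit of males alone 1. The fit of allele by sex over all 56 libraries turned that order, with 1 of the 22 called in females and 7 in males. With no filter 17 genes were called, 16 of the 22 among them, without Tmc3, Tlcd1, Mfge8, Plpp2, Apod and Shox2. With the token of the library name that starts with L as a factor 22 were called, 16 of the 22 among them, without Gpr83, Gng11, Tmc3, Plpp2, Apod and Shox2. DESeq2's size factors in edgeR gave 23 calls with all of the 22, and no sex term gave 21 without Mfge8. The cause of these shifts was not tested.

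At 2 months the count of 0 became 2 with only the 16 libraries and 4 with DESeq2. The 34 genes of the 10 minus 6 months test became 66 with DESeq2, the 1 gene of 10 minus 2 months became 5 without libraries of low correlation and 3 with DESeq2, and the 1 gene of the sexes became 0 with only the 16 libraries and 17 with DESeq2. On mean logs, 4 marker lists that did not pass turned their sign: glutamatergic neurons (0.0054), choroid plexus (-0.057), hippocampus (0.19) and liver (-0.011).

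Replicate numbers did not pair the libraries: correlations of deviations over 8 pairs ran from -0.20 to 0.13, with 3 over 0.1. With the replicate block 20 genes were called (11 higher, 9 lower), including 18 of the 22, without Mfge8, Plpp2, Apod and Shox2.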
